A study of Mus musculus with 16 samples.

Results

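Loricrin, filaggrin, their relatives and the transglutaminases that cross-link them were followed as RNA counts in mouse epidermis. The group holds the 10 genes Lor, Flg, Flg2, Hrnr, Ivl, Rptn, Crnn, Cnfn, Tgm1 and Tgm3, among 49585 genes of the deposited count table. They were chosen by name, with earlier results of these data known. All 10 were found by their Ensembl identifier and all 10 passed the filter on low counts, which kept 17741 genes. The samples were epidermis, separated by heat, of SKH-1 mice aged 8 to 12 weeks, a hairless stock used in studies of ultraviolet skin damage. The control mice were labelled K5Cre, and the keratin 5 promoter drives Cre in basal keratinocytes of the epidermis and hair follicle. The other mice were labelled C/EBPB -/-, an epidermal knockout of the transcription factor C/EBPβ. The labels do not name the Cre of the knockouts, so whether both genotypes carry it is not given. Each genotype was left unexposed or was sampled 6 h after 100 mJ/cm2 of ultraviolet B (UVB), which gives 4 groups of 4 libraries. The design asks how these transcripts differed with the knockout, with UVB and with both.

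The outermost layer of the epidermis is made of dead, flattened keratinocytes wrapped in a cornified envelope, a sheet of cross-linked protein under the membrane. Involucrin and cornifelin are laid down in this sheet and loricrin becomes its main reinforcing protein, while transglutaminases join the proteins by bonds between glutamine and lysine residues. Profilaggrin, the product of Flg, is stored in the granules of the granular layer, cut into filaggrin that bundles keratin filaments, and later broken down to amino acids that hold water. Flg2, Hrnr, Rptn and Crnn encode relatives of profilaggrin that begin with calcium-binding S100 domains and go on with repeats. C/EBPβ is a basic leucine zipper factor of keratinocytes that takes part in their early differentiation.

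Of the 10 genes, 7 lie in the epidermal differentiation complex of chromosome 3, a cluster of genes for envelope proteins, and the 3 others are elsewhere, Cnfn on chromosome 7, Tgm1 on chromosome 14 and Tgm3 on chromosome 2. The stretches upstream of 6 of the starts are printed to stand for genes called lower after UVB in at least 1 genotype (Lor, Flg), called higher (Rptn, Cnfn, Tgm3) and called in no comparison (Ivl). Each line gives the 210 bases before the start of the gene in RefSeq (build GRCm38.p6), 5′ to 3′ on the strand of the gene. Capitals mark matches to an AP-1 motif (TGANTCA), to a C/EBP motif (TTGCNNAA) and to a TATA box (TATAAA), searched on both strands. The windows are chr3:92083143-92083352 (minus strand) for Lor, chr3:93273336-93273545 (plus) for Flg, chr3:92573736-92573945 (minus) for Ivl, chr3:93393489-93393698 (plus) for Rptn, chr7:25369725-25369934 (minus) for Cnfn and chr2:130012130-130012339 (plus) for Tgm3.
Lor: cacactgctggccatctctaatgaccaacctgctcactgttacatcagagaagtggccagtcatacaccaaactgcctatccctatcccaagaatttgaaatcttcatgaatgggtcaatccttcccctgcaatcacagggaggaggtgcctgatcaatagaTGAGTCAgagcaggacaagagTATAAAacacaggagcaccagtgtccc
Flg: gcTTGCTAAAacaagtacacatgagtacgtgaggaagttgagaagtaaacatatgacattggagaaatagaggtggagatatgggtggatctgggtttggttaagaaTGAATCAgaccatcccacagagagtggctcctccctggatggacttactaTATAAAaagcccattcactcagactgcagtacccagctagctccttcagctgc
Ivl: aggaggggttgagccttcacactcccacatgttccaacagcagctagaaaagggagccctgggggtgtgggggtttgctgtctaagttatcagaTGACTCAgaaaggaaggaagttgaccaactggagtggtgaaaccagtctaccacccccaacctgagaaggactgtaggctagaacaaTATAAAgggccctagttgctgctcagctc
Rptn: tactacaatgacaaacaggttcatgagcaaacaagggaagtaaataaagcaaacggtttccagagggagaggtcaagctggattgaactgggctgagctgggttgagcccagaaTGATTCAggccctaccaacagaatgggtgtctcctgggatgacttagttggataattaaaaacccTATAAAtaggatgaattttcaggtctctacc
Cnfn: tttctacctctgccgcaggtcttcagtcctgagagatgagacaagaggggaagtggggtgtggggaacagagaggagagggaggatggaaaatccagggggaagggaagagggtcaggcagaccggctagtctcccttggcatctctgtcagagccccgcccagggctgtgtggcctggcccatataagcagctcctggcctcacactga
Tgm3: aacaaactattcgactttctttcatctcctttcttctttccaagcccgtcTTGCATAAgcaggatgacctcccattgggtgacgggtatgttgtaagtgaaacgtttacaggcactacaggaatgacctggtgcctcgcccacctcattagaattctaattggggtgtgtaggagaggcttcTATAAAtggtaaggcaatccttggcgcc

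Over windows from 250 bases before to 50 bases after the start, the AP-1 motif matched in 6 of the 10 members (Lor, Flg, Flg2, Ivl, Rptn and Crnn), against 7.81% of 32851 RefSeq promoters of the same length. The match began 48 bases before the start in Lor, 103 in Flg, 69 in Flg2, 116 in Ivl and 96 in both Rptn and Crnn. It read TGAGTCA in Lor and TGACTCA in Ivl, the form with C or G in the middle that 5.2% of all promoters hold on either strand. In Flg, Flg2 and Crnn the letters were TGAATCA and in Rptn TGATTCA. Hrnr, Cnfn, Tgm1 and Tgm3 had no match in this window. The C/EBP motif matched in Flg, Flg2, Hrnr and Tgm3, 4 of 10, against 10.8% of promoters, and TATAAA in 7 of 10, against 13.6%. The start of Tgm1 in RefSeq nearest to that of GENCODE M21 lay 434 bases from it, so its window may not hold the promoter in use. A match is a string of letters and does not show that a factor binds.

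Together the members held 2.91% to 4.05% of all counts in the 4 unexposed control libraries, and 2.49% to 2.83% in controls after UVB. For the knockouts the share was 2.63% to 3.43% without exposure, against 1.81% to 2.25% with it. Every exposed knockout library was thus below every library of the other groups. Lor and Flg alone gave 2.27% to 3.31% of counts in unexposed controls and 1.04% to 1.52% in exposed knockouts. Leaving out Lor, Flg, Flg2 and Hrnr, the other 6 genes made up 2.55% to 4.17% of the members' counts in controls without UVB, and 13.8% to 23.2% with it. In knockouts their part was 3.38% to 8.71% without UVB, and 15.8% to 22.8% with it. A smaller total after UVB thus went with a larger part from the minor genes, as the plot of shares shows.

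**Figure D1:**
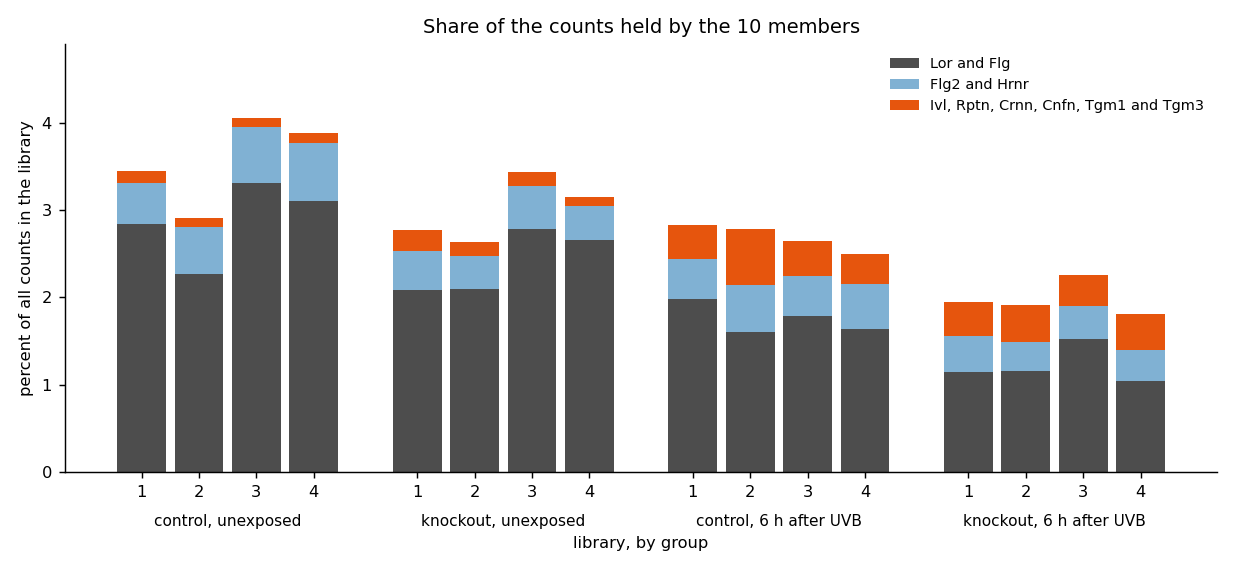
Bars give the percent of all counts in each of the 16 libraries (numbered 1 to 4 within a group) held by the 10 genes, split into Lor with Flg, Flg2 with Hrnr, and the 6 others. The total falls from 2.91% to 4.05% in unexposed controls to 1.81% to 2.25% in exposed knockouts while the top segment widens after UVB in both genotypes.

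Levels below are CPM, counts per 1000000 after scaling each library by its total and a TMM factor, and dividing them by the exonic length in kilobases (kb) allows levels to be compared between genes. Lor led in every group, with 8510 ± 2030 CPM per kb (mean ± SD, n = 4) in unexposed controls, Flg followed with 750 ± 145 and Cnfn with 524 ± 62.3. Hrnr came next at 267 ± 35.6 CPM per kb. The ranges of Flg2 (136 ± 31.9), Ivl (130 ± 17.8) and Tgm1 (116 ± 8.15) overlapped from each to the next in this order, as did those of Rptn (27.9 ± 10.1), Crnn (19.3 ± 13) and Tgm3 (12.1 ± 3.93) at the bottom. After UVB the order of the controls was Lor (6560 ± 1100), Cnfn (2220 ± 189), then Rptn (445 ± 290), Flg (437 ± 70.5), Tgm1 (349 ± 53.1) and Hrnr (310 ± 64), with overlapping ranges from Rptn to Hrnr. In unexposed knockouts Lor (5370 ± 1330) was followed by Cnfn (836 ± 138) and Flg (679 ± 273), whose ranges overlapped. Exposed knockouts gave 3500 ± 254 for Lor and 2060 ± 234 for Cnfn, so cornifelin had the second highest mean per kb in every group but the unexposed controls. Levels of Flg, Flg2 and Hrnr depend on how reads in their repeats were counted: only 20.8%, 34.7% and 30.9% of the 50-base stretches of their longest transcripts occur once, and the rest recur inside the same gene. For the other 7 members this share was 94.5% or more.

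The libraries held 32983160 to 53255160 counts. The targeted gene Cebpb read 166 CPM on average in unexposed controls against 0.574 in unexposed knockouts, and 291 against 1.93 after UVB. Epidermal keratins (Krt5, Krt14, Krt15, Krt1, Krt10, Krt2 and Krt77), which define the labelled tissue, summed to 18700 to 55300 CPM per library and all 7 had counts in every group. Hair follicle markers, 19 of 20 in the table and none at 0, summed to 786 to 2990 CPM in controls and 387 to 900 in knockouts without UVB, and to 1380 to 6690 and 272 to 5060 with it. Fibroblast markers summed to 19.7 to 82.4 CPM over both control groups and 97.0 to 355 over both knockout groups, with Lum at 0 in unexposed knockouts and exposed controls. Endothelial markers likewise gave 9.02 to 29.5 CPM in controls and 28.4 to 77.2 in knockouts, with Cdh5 at 0 in unexposed controls and Cdh5, Kdr and Emcn at 0 in exposed controls. Markers of neutrophils and macrophages, which include S100a8 and S100a9 that keratinocytes also make, gave 87.5 to 253 CPM without UVB, and with it 717 to 1150 in controls and 357 to 628 in knockouts, Ly6g being at 0 in all groups but the exposed controls. Langerhans cell markers summed to 627 to 843 CPM in controls and 677 to 1030 in knockouts without UVB. With UVB they summed to 729 to 929 in controls and 923 to 1160 in knockouts. T cell markers ranged from 51.8 to 117 CPM. Melanocyte markers ranged from 40.3 to 78.5 in controls and 22.9 to 39.0 in knockouts without UVB, and from 31.5 to 95 with it. Skeletal muscle markers ranged from 2.88 to 8.27 and those of sebaceous gland and adipocytes from 88.5 to 1140. Mitochondrial transcripts took 5.24% to 9.65% of the counts of controls after UVB, against 5.44% to 5.99% in knockouts, and 17086 to 19763 against 19592 to 22001 genes were detected. The part of these differences in the results was not tested, and in bulk tissue fewer cells of a type and less RNA per cell cannot be told apart. The labels do not say that the libraries of a group came from separate mice. A p-value here thus reflects the spread among libraries within the 4 groups, fitted together, and that spread may be technical.

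Loricrin transcripts, which encode the main protein of the envelope, were lower in knockout epidermis after UVB. Lor (ENSMUSG00000043165, 2 exons, chromosome 3, 92080271 to 92083142, minus strand) read 14600, 10200, 18100 and 17600 CPM in the unexposed control libraries and 8100, 7680, 12900 and 9570 CPM in the unexposed knockouts. The knockouts were lower except that library 3 lay inside the control range. The log2 difference was -0.66 (SE 0.19, edgeR adjusted p = 0.0858), which missed the threshold of 0.05 in this fit. It was called with DESeq2 (adjusted p = 0.0205), limma voom (0.0417) and without a filter on low counts (0.0347). After UVB the controls read 14200, 11900, 11100 and 9490 CPM and the knockouts 5880, 5970, 6880 and 6180 CPM. Here the groups did not overlap, and Lor was 1.87-fold lower in knockouts (log2 fold change -0.91, SE 0.20, edgeR adjusted p = 0.0105). The call held in each of 8 fits that left out 1 library. UVB itself lowered Lor in knockouts (log2 fold change -0.62, SE 0.19, adjusted p = 0.0179), with every exposed library below every unexposed one. That call was lost without unexposed knockout library 3, the highest of its group (-0.44, adjusted p = 0.0965). In controls the log2 difference after UVB was -0.37 (SE 0.19, adjusted p = 0.146) and the groups overlapped, and without unexposed control library 2 it was -0.53 (adjusted p = 0.0392). The difference between these responses was -0.24 (95% interval -0.78 to 0.29, adjusted p = 0.947).

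Involucrin, an early scaffold of the envelope, passed no test. Ivl (ENSMUSG00000049128, chromosome 3, 92570902 to 92573735) read 291, 257, 208 and 243 CPM in unexposed controls and 277, 139, 160 and 104 CPM in unexposed knockouts. After UVB it read 152, 288, 199 and 246 CPM in controls and 304, 102, 130 and 105 CPM in knockouts. In both knockout groups library 1 was high and the 3 others lay below all controls of the same exposure, so the genotypes overlapped. The log2 differences for the knockout were -0.56 unexposed (95% interval -1.27 to 0.16, edgeR adjusted p = 0.641) and -0.47 after UVB (-1.18 to 0.25, adjusted p = 0.533). Those for UVB were -0.18 in controls (-0.89 to 0.53) and -0.09 in knockouts (-0.80 to 0.62).

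Cornifelin, a small cysteine-rich envelope protein, was higher in unexposed knockouts and rose with UVB in both genotypes. Its libraries lay close together, with coefficients of variation of 8.49% to 16.6% within groups. Cnfn (ENSMUSG00000063651, chromosome 7, 25367620 to 25369724, 5 exons) read 441, 357, 369 and 340 CPM in unexposed controls. Unexposed knockouts read 682, 466, 669 and 588 CPM, all above the controls, and the difference was called (log2 fold change 0.68, SE 0.14, edgeR adjusted p = 0.0133). Cnfn was the only member called higher in unexposed knockouts. The call was lost without unexposed control library 4 (adjusted p = 0.0685) or unexposed knockout library 1 (0.0614). Exposed controls rose to 1570, 1800, 1520 and 1500 CPM, a 4.24-fold increase (SE of the log2 value 0.14, adjusted p = 2.72e-09). Exposed knockouts read 1270, 1490, 1500 and 1680 CPM, 2.47-fold above unexposed ones (adjusted p = 1.05e-06). Levels after UVB overlapped between genotypes (log2 difference -0.11, 95% interval -0.38 to 0.17, adjusted p = 0.741). The difference between the UVB responses, knockouts minus controls, was -0.78 on the log2 scale (SE 0.20, edgeR adjusted p = 0.51), and DESeq2 called it (adjusted p = 0.0155).

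**Figure D2:**
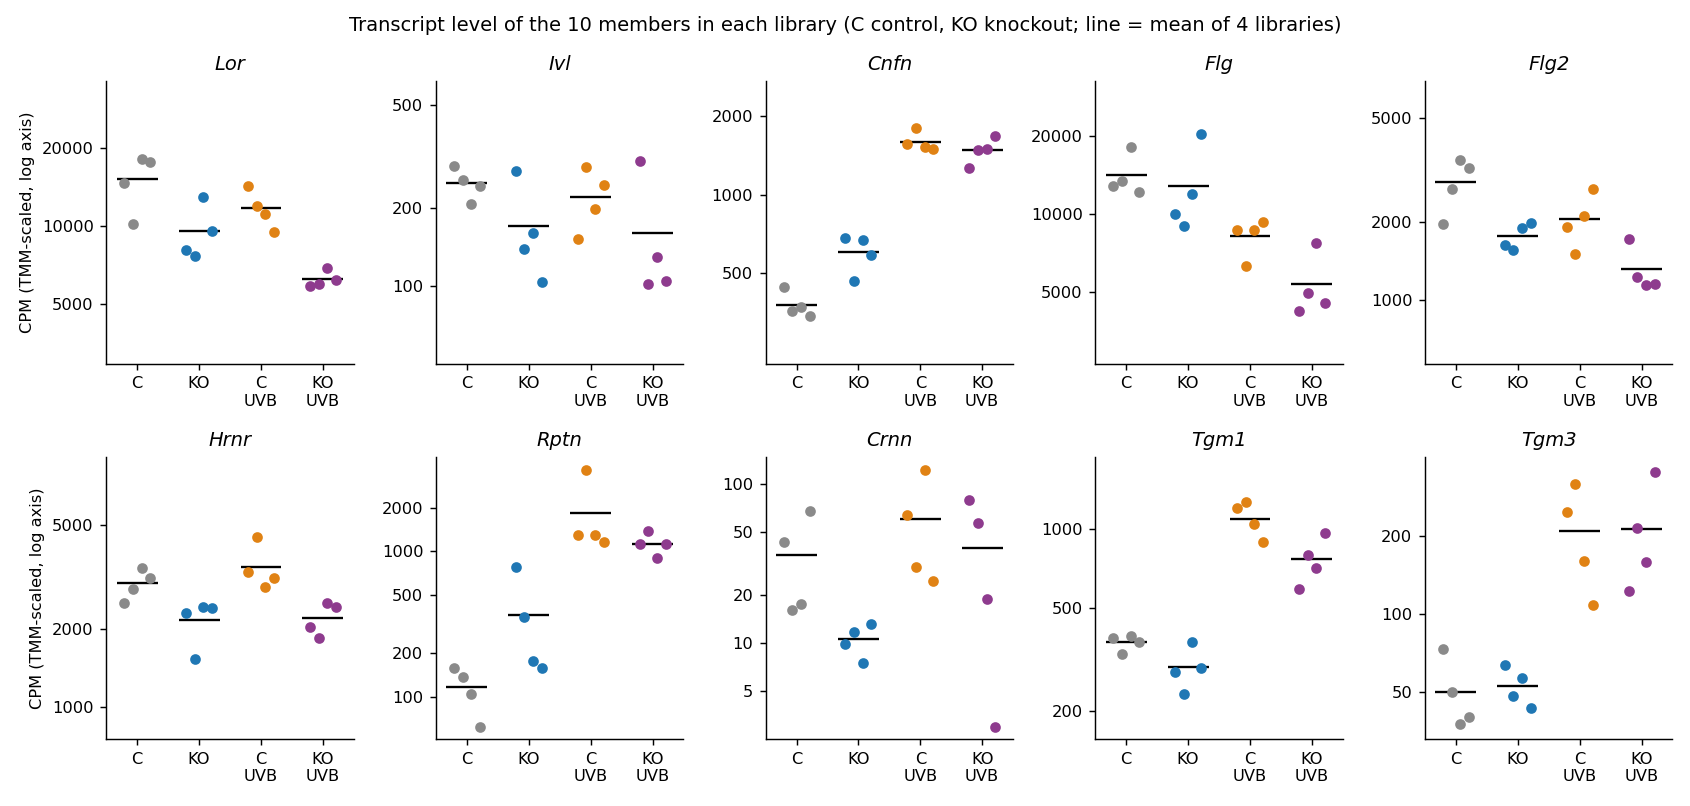
Points give the TMM-scaled CPM of each library on a log axis for each of the 10 genes, in control (C) and knockout (KO) epidermis, unexposed or 6 h after UVB, and lines give the mean of 4 libraries. Cnfn, Tgm1 and Tgm3 separate by exposure without overlap, Lor is lowest in all 4 exposed knockout libraries, and Rptn library 2 of the exposed controls stands alone at 3650 CPM.

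Profilaggrin transcripts fell after UVB in both genotypes. Flg (ENSMUSG00000102439, chromosome 3, 93273523 to 93293686) read 12800, 13400, 18100 and 12100 CPM in unexposed controls and 8680, 6300, 8640 and 9320 CPM in exposed ones. The exposed libraries were all below the unexposed ones, and Flg was 1.71-fold lower (log2 fold change -0.78, SE 0.24, edgeR adjusted p = 0.0147), a call lost without unexposed control library 3 (-0.64, adjusted p = 0.0568). Unexposed knockouts read 9990, 8980, 11900 and 20300 CPM and exposed knockouts 4240, 4950, 7700 and 4560 CPM. In knockouts the fall was 2.38-fold (log2 fold change -1.25, SE 0.24, adjusted p = 0.000391), and it was called in each of 8 fits that left out 1 library. Between genotypes the log2 difference was -0.14 unexposed (adjusted p = 0.945) and -0.62 after UVB (SE 0.24, adjusted p = 0.142), and neither was called. The libraries with the highest Flg also had the highest mitochondrial share of their groups in unexposed controls (library 3, 8.57%), unexposed knockouts (library 4, 10.2%) and exposed controls (library 4, 9.65%). In exposed knockouts the highest Flg, in library 3, went with the lowest share, 5.44%, and the part of this share in the Flg values was not tested.

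Filaggrin-2, which is processed like filaggrin, was lower on average under both knockout and UVB, without passing the threshold of the main fit. Flg2 (ENSMUSG00000049133, chromosome 3, 93197278 to 93221391) read 1960, 2680, 3460 and 3210 CPM in unexposed controls and 1620, 1550, 1890 and 1980 CPM in unexposed knockouts. After UVB it read 1900, 1500, 2110 and 2670 CPM in controls and 1720, 1220, 1140 and 1150 CPM in knockouts. A single library of each genotype overlapped, control 1 with knockout 4 unexposed and control 2 with knockout 1 after UVB. The log2 difference between genotypes was -0.68 unexposed (SE 0.19, edgeR adjusted p = 0.0719) and -0.65 after UVB (SE 0.19, adjusted p = 0.059). For UVB it was -0.47 in controls (adjusted p = 0.0642) and -0.43 in knockouts (adjusted p = 0.0983). These values lay close to the threshold, and DESeq2 called all 4 (adjusted p = 0.0196, 0.00851, 0.0423 and 0.0313). The difference between genotypes after UVB was also called with RLE scaling (0.0442), upper quartile scaling (0.0491), no filter (0.0459), at least 1 CPM in 4 libraries (0.0493) and limma voom (0.0434). Fitting only the groups compared did not call it.

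Hornerin, a repeat protein of the same family, was lower in knockouts after UVB. Hrnr (ENSMUSG00000041991, chromosome 3, 93319749 to 93333570) read 2510, 2840, 3440 and 3150 CPM in unexposed controls and 2310, 1530, 2430 and 2410 CPM in unexposed knockouts. Every knockout library was below every control library, although the log2 difference of -0.46 (SE 0.17) gave an edgeR adjusted p of 0.225. After UVB the controls read 3320, 4510, 2910 and 3140 CPM and the knockouts 2040, 1840, 2510 and 2430 CPM, again without overlap. Hrnr was then 1.57-fold lower in knockouts (log2 fold change -0.65, SE 0.17, adjusted p = 0.0343). The call stood near the threshold: it held in 3 of 8 fits that left out 1 library and was lost without exposed control library 1 or 2 or exposed knockout library 1, 2 or 4 (adjusted p up to 0.127). Fitting only the groups compared also lost it (0.0535). UVB did not move Hrnr beyond the spread of the libraries, with log2 differences of 0.22 in controls (95% interval -0.12 to 0.56) and 0.02 in knockouts (-0.32 to 0.36).

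Repetin, another member of the fused S100 family, had the largest fold change of the 10 genes after UVB in controls. Rptn (ENSMUSG00000041984, chromosome 3, 93393699 to 93399442) read 158, 138, 105 and 62.5 CPM in unexposed controls and 1290, 3650, 1290 and 1160 CPM in exposed controls. Every exposed library was above every unexposed one, and the rise was 15.9-fold (log2 fold change 3.99, SE 0.59, edgeR adjusted p = 0.000154). Without exposed control library 2 the log2 fold change was 3.36 (adjusted p = 0.000303). Unexposed knockouts read 783, 353, 177 and 158 CPM, and exposed knockouts 1130, 1380, 897 and 1130 CPM, without overlap. The rise in knockouts was 3.08-fold (log2 fold change 1.62, SE 0.53, adjusted p = 0.0336), and 6 of 8 fits without 1 library lost the call (adjusted p up to 0.105). Those were the fits without unexposed knockout library 2, 3 or 4 or exposed knockout library 1, 2 or 4, and without unexposed knockout library 1 the log2 fold change was 2.30. Between genotypes the log2 difference was 1.67 unexposed (SE 0.54, adjusted p = 0.161) and -0.70 after UVB (SE 0.52, adjusted p = 0.512). The difference between the UVB responses, knockouts minus controls, was -2.37 on the log2 scale (SE 0.75, edgeR adjusted p = 0.718), which did not pass the correction over all genes. Another gene model, Gm37857, shares 45 exonic bases with Rptn on the same strand.

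Cornulin, also a fused S100 protein, had the lowest mean CPM of the 10 genes in every group and passed no test in the main fit. Crnn (ENSMUSG00000078657, chromosome 3, 93144787 to 93149819) read 43.0, 16.1, 17.6 and 67.2 CPM in unexposed controls and 9.89, 11.7, 7.5 and 13.2 CPM in unexposed knockouts. These groups did not overlap, yet the log2 difference of -1.77 had an SE of 0.84 (edgeR adjusted p = 0.425). After UVB it read 63.5, 30.1, 123 and 24.7 CPM in controls and 79.4, 56.5, 18.9 and 2.99 CPM in knockouts, so that exposed knockouts held both the lowest and one of the highest readings. The log2 difference for UVB in knockouts, 1.90 (SE 0.84, adjusted p = 0.11), was called by DESeq2 (0.0485) and without exposed knockout library 4 (0.031). Its level ran with genes of the hair follicle across libraries. The correlation of its log2 CPM with Tchh, which encodes trichohyalin of the inner root sheath, was 0.98 over the 16 libraries and 0.98 after the group means were removed. Tchh itself read 1570, 1060, 308 and 72.2 CPM in the 4 exposed knockout libraries, in the same order as Crnn. With Padi3, a deiminase of the follicle, and Krt25, an inner root sheath keratin, the correlations were 0.98 and 0.97, and Krt72, Tchh and the lipid carrier gene Fabp4, which is on the sebaceous and adipocyte list, were its 3 nearest genes of 8326 compared (0.983 each). Over 10 follicle and related genes the correlations of Crnn were 0.89 to 0.98 and those of the 9 other members -0.34 to 0.64. Of the 19 tested follicle markers 5 were called higher with UVB in knockouts and 0 in any other comparison. With UVB in knockouts 18.1% of all genes were called higher, so this count was not far from the background. The median log2 difference of the follicle markers for the knockout was -1.40 without UVB and -0.29 with it. For UVB it was 0.95 in controls and 2.05 in knockouts. The points share libraries and depth, and the part of follicle content in the Crnn values was not tested.

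**Figure D3:**
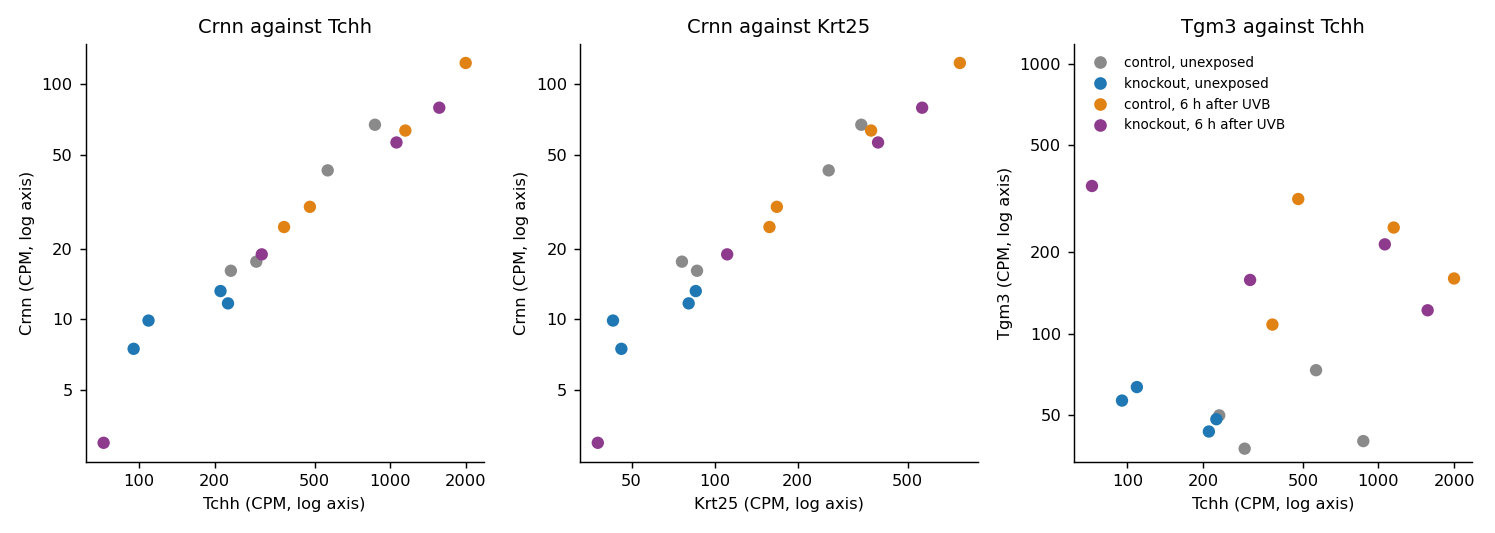
Each point is 1 of the 16 libraries, with CPM on log axes, for Crnn against Tchh, Crnn against Krt25, and Tgm3 against Tchh. Crnn rises with both follicle genes from 2.99 to 123 CPM in all 4 groups, while Tgm3 separates by exposure and not by Tchh.

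The transglutaminases rose after UVB in both genotypes. Tgm1 (ENSMUSG00000022218, chromosome 14, 55700009 to 55713926, 17 exons), the membrane-anchored enzyme of the envelope, read 382, 331, 389 and 369 CPM in unexposed controls and 1210, 1270, 1050 and 894 CPM in exposed ones. The rise was 3.01-fold (log2 fold change 1.59, SE 0.16, edgeR adjusted p = 3.21e-07). Unexposed knockouts read 283, 233, 369 and 292 CPM and exposed knockouts 591, 798, 707 and 971 CPM, a 2.60-fold rise (log2 fold change 1.38, SE 0.16, adjusted p = 2.46e-06). No exposed library overlapped an unexposed one in either genotype. After UVB 3 of the 4 knockout libraries lay below all controls, with a log2 difference of -0.53 (SE 0.16, adjusted p = 0.0624) that DESeq2 (0.0163) and limma voom (0.0388) called. An antisense gene, Gm49067, shares 182 exonic bases with Tgm1, and the sources do not state whether the counting used strand.

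Tgm3 (ENSMUSG00000027401, chromosome 2, 130012349 to 130050399, 13 exons), which is activated by cleavage and also acts in the hair follicle, read 73.2, 49.8, 37.5 and 40.0 CPM in unexposed controls and 247, 315, 160 and 108 CPM in exposed ones. Unexposed knockouts read 63.4, 48.2, 56.5 and 43.4 CPM and exposed knockouts 122, 214, 158 and 352 CPM. The exposed libraries were all above the unexposed ones, 4.14-fold in controls (log2 fold change 2.05, SE 0.37, edgeR adjusted p = 0.000629) and 4.00-fold in knockouts (log2 fold change 2.0, SE 0.37, adjusted p = 0.000825). Both genotypes overlapped at either time, with log2 differences of 0.08 unexposed (95% interval -0.63 to 0.78) and 0.03 after UVB (-0.68 to 0.73). The ratio of Tgm1 to Tgm3 counts was 5.22 to 10.4 in controls and 4.47 to 6.74 in knockouts without UVB, and 4.02 to 8.27 and 2.76 to 4.86 with it.

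By comparison, the calls fell as follows. In unexposed epidermis 1 of 10 members was called higher in knockouts (Cnfn) and 0 lower, where 0.964% of all 17741 genes tested were called higher and 1.14% lower. The median log2 difference of the members was -0.39, against 0.00 for all genes, and 7 of 10 were negative. After UVB 0 members were called higher and 2 lower in knockouts (Lor and Hrnr), against 2.36% and 2.32% of all genes. Their median was -0.62 against 0.04 for all genes, with 9 of 10 negative and Tgm3 the exception at 0.03. At an unadjusted p under 0.05, 5 members passed in each of these comparisons, with 2208 and 3595 of all genes. Without overlap between genotypes, the summed markers of fibroblasts and endothelium were higher in knockouts in both comparisons. Those of melanocytes were lower in unexposed knockouts (0 of 7 called), and those of neutrophils and macrophages lower in exposed knockouts (357 to 628 against 717 to 1150 CPM). By gene, 1 of 7 tested fibroblast and 1 of 3 endothelial markers were called higher in each comparison. The median log2 difference was 1.95 unexposed and 0.26 after UVB for fibroblast markers, and 1.28 and -1.22 for endothelial ones. A sum can thus rest on few genes of its list. Of 8 neutrophil and macrophage markers, 1 was called higher and 0 lower in exposed knockouts (S100a8 -1.14 and S100a9 -1.23, not called). Langerhans cell sums overlapped, with 4 of 8 markers called higher and 0 lower in exposed knockouts. Whether these sums reflect cell content, and its part in the members' differences, was not tested.

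UVB in controls called 4 of 10 members higher (Rptn, Cnfn, Tgm1 and Tgm3) and 1 lower (Flg), against 17.7% and 18.0% of all genes. In knockouts, 4 members were called higher and 2 lower (Lor and Flg), against 18.1% and 14.1%, and the 4 higher ones were again Rptn, Cnfn, Tgm1 and Tgm3. The UVB medians were 0.48 and 0.66 (all genes -0.02 and 0.01). The count of members called lower was thus near the share of all genes in both genotypes. The difference between the UVB responses of the genotypes was called for 0 of 10 members and for 0% of all genes in either direction by edgeR. At an unadjusted p under 0.05, 2 members (Cnfn and Rptn, both with a lower value in knockouts) and 1043 of all genes passed, and DESeq2 called 31 genes, Cnfn among them.

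**Figure D4:**
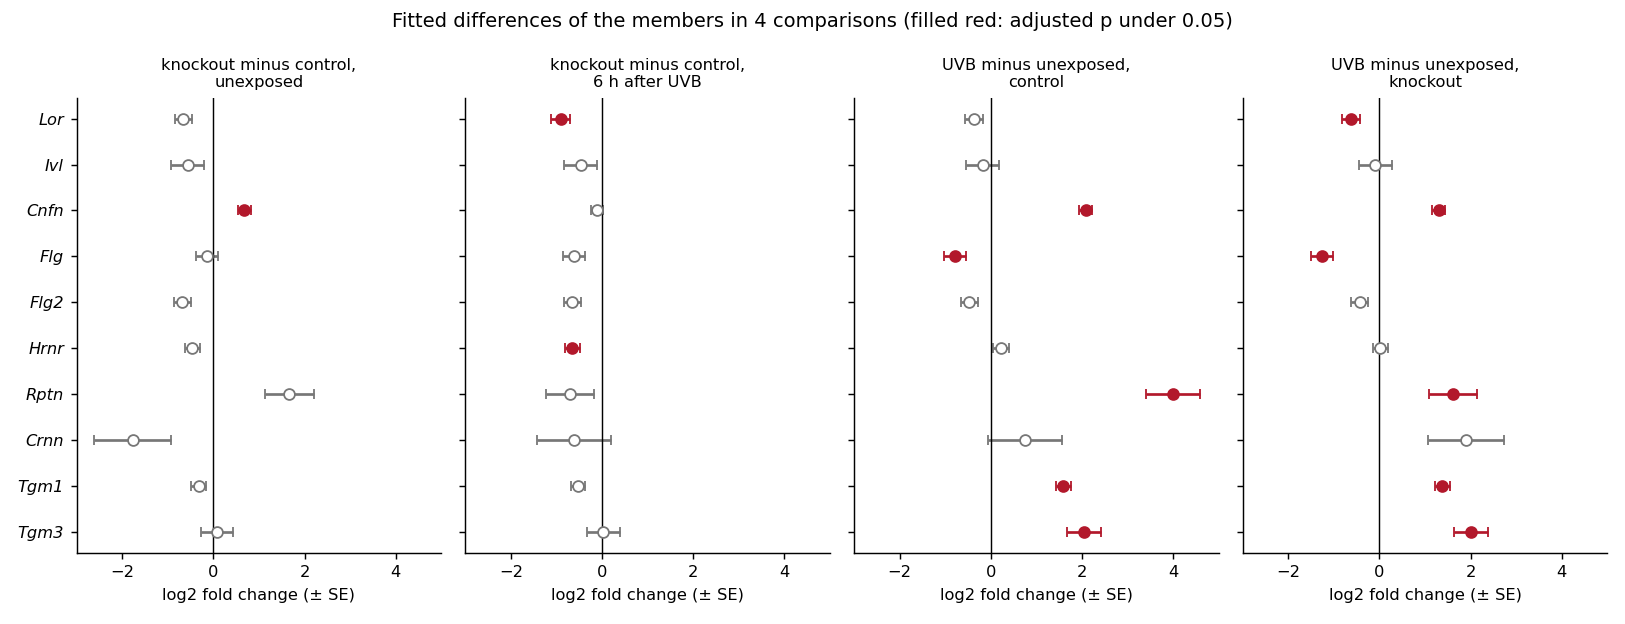
Points give the fitted log2 fold change of each gene in 4 comparisons with its SE, filled red where the adjusted p was under 0.05. Knockout differences are mostly to the left of 0, with Cnfn called to the right unexposed and Lor and Hrnr to the left after UVB, while Rptn, Cnfn, Tgm1 and Tgm3 are to the right after UVB in both genotypes.

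Levels of some members moved together over the 16 libraries, which include the shift by UVB. The correlation of log2 CPM was 0.93 between Rptn and Cnfn, 0.92 between Cnfn and Tgm3 and 0.91 between Tgm1 and Tgm3. With the group means removed these were 0.35, 0.69 and 0.73. Flg ran opposite to Tgm3 (-0.80) and Rptn (-0.78), and within groups these were -0.39 and -0.58. Lor and Flg, the most abundant members, correlated at 0.68 over all libraries and 0.27 within groups.

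Among 8326 tested genes outside the group with a mean of at least 10 CPM, the nearest in pattern to Lor was Fam25c (0.957 over all libraries, 0.83 within groups), with Lce1e, a late cornified envelope gene, also among its 3 nearest (0.938). Flg was nearest to Tmem50a (0.97), Flg2 to Rtn3 (0.939), Hrnr to Adipor2 (0.946, with the envelope gene Lce1f at 0.938) and Ivl to Cyp51, a sterol synthesis enzyme, at only 0.847. Rptn was nearest to Lce3f (0.97), a late cornified envelope gene, and had the small proline-rich gene Sprr1b among its 3 nearest (0.962). Cnfn was nearest to Fosl1, which encodes an AP-1 subunit (0.986, and 0.626 within groups), and Sprr2i (0.986, and 0.477 within groups). Tgm1 was nearest to Ceacam19 (0.995) and Gsdma (0.99), and Tgm3 to Actg1, a cytoplasmic actin (0.983). Each is the highest of 8326 correlations and describes these libraries only.

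Among 14 tested genes for other proteins of the envelope and the outer layers, 1 was lower in unexposed knockouts, 4 were lower in exposed knockouts and 0 were higher in either. Of all genes, 1.14% and 2.32% were called lower in these comparisons, and 0.964% and 2.36% higher. Crct1, a cysteine-rich gene of the differentiation complex, was 1.73-fold lower in exposed knockouts (log2 fold change -0.79, SE 0.14, edgeR adjusted p = 0.00336), a call that held in all 8 fits without 1 library. Dmkn, the secreted protein dermokine, was 1.53-fold lower unexposed (adjusted p = 0.0397) and 1.47-fold lower after UVB (0.0398). Krtdap, a secreted protein of differentiating keratinocytes, was 1.45-fold lower after UVB (adjusted p = 0.0429) and 2310050C09Rik 1.75-fold lower (0.0381). The calls of Dmkn, Krtdap and 2310050C09Rik held in only 1 or 2 of 8 fits without 1 library. After UVB, 3 were higher and 1 lower in controls and 4 higher and 1 lower in knockouts. Of all genes, 17.7% were called higher and 18.0% lower in controls, and 18.1% and 14.1% in knockouts. The UVB counts of the list were thus not far from these shares. Evpl, which encodes envoplakin, rose 1.81-fold in controls (adjusted p = 1.7e-05) and 2.0-fold in knockouts (4.26e-06). Anxa1 rose 2.19-fold and 2.18-fold, and the corneodesmosin gene Cdsn 1.64-fold and 1.55-fold, while Kprp, a keratinocyte proline-rich protein, fell 1.40-fold and 1.41-fold (adjusted p = 0.0262 and 0.0261). Kprp lost its call in 5 of 8 fits without 1 library in controls and in 3 of 8 in knockouts. The median log2 difference of the list was -0.35 unexposed and -0.40 after UVB for the knockout (all genes 0.00 and 0.04), and 0.31 for UVB in both genotypes (all genes -0.02 and 0.01).

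Genes that process profilaggrin or break down filaggrin were also read. Of 15 tested, 2 were lower in knockouts in either condition and 0 were higher. Of all genes, 1.14% were called lower in unexposed knockouts and 2.32% in exposed ones. Furin, a proprotein convertase, was 1.69-fold lower in unexposed knockouts (edgeR adjusted p = 0.00571), and Pcsk6, a convertase of the same family, 2.17-fold lower after UVB (adjusted p = 0.00944). Hal, which makes urocanic acid from the histidine of filaggrin, was 1.43-fold lower in unexposed knockouts and 1.38-fold lower after UVB (adjusted p = 0.0221 in both), and 4 of 8 and 5 of 8 fits without 1 library kept these calls. UVB lowered Hal 1.52-fold in controls (adjusted p = 0.000293) and 1.48-fold in knockouts (0.000657). UVB also lowered Ggct 1.48-fold and Capn1 1.45-fold in controls and raised the protease gene St14 1.44-fold there and 1.38-fold in knockouts. In knockouts Furin rose 1.86-fold with UVB (adjusted p = 5.48e-05) and Ggct fell 1.40-fold (0.0178), and 2 of 8 fits without 1 library lost the latter call. In all, 2 of the 15 genes rose and 3 fell with UVB in each genotype, where 17.7% and 18.0% of all genes were called higher and lower in controls and 18.1% and 14.1% in knockouts, so these counts were near the background. The medians of the list were -0.33 and -0.30 for the knockout and 0.14 and 0.23 for UVB, beside the same medians of all genes as above.

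Of the 7 other transglutaminase genes tested, 0 were called for the knockout in either condition. Of all genes, only 0.964% were called higher and 1.14% lower in unexposed knockouts, and 2.36% and 2.32% in exposed ones. Tgm5, an epidermal transglutaminase, rose 1.39-fold with UVB in controls (edgeR adjusted p = 0.00167) and 1.56-fold in knockouts (0.000123). Tgm2, a widely expressed transglutaminase, rose 4.27-fold in knockouts (adjusted p = 0.00579), from 1.13 to 4.86 CPM. The other 5 were not called. With UVB 1 of the 7 was thus called higher in controls and 2 in knockouts, against 17.7% and 18.1% of all genes. These counts were not far from the background.

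Of 26 tested regulators of keratinocyte differentiation, 12 rose and 5 fell with UVB in controls and 13 rose and 4 fell in knockouts, with median log2 differences of 0.42 and 0.40 (all genes -0.02 and 0.01). The count of falls was near the share of all genes called lower (18.0% and 14.1%), and 17.7% and 18.1% of all genes were called higher. Hopx rose 4.56-fold in controls (edgeR adjusted p = 9.04e-09) and 3.30-fold in knockouts (2.32e-07), the epithelial factor Ehf 3.42-fold and 2.46-fold, its relative Elf3 7.10-fold and 5.16-fold, and Tfap2c 2.27-fold and 2.0-fold. In unexposed knockouts only Cebpb itself was called. In exposed knockouts 3 were lower, and 1 of these was Cebpb, the targeted gene. Of all genes, 1.14% were called lower in unexposed knockouts and 2.32% in exposed ones. Casz1 was 1.52-fold lower (adjusted p = 0.0481) and Hopx 1.47-fold lower (0.049). Casz1 kept its call in 1 of 8 fits without 1 library and Hopx in 2. The medians for the knockout were -0.00 and -0.05.

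The neighbours of the 7 members on chromosome 3 split by family. From S100a1 to S100a10 the annotation holds 121 genes of the table, of which 84 were tested, members included. UVB raised 33 and lowered 18 of them in controls and raised 38 and lowered 20 in knockouts. Of all genes, 17.7% were called higher and 18.0% lower in controls, and 18.1% and 14.1% in knockouts. The count lowered in controls was thus near the share of all genes. Of 16 small proline-rich genes (Sprr), which encode cross-linked envelope proteins, 14 rose in each genotype, with a median log2 difference of 4.96 in controls and 3.33 in knockouts. Of 21 late cornified envelope genes (Lce), 6 rose and 12 fell in controls and 6 rose and 14 fell in knockouts. Of 12 S100 genes, 7 rose in controls and 10 in knockouts. Rptn, 1313.4 kb from Lor, rose like the Sprr genes, whereas Lor, Flg at 1193.3 kb and Flg2 at 1117.0 kb were below 0 like most Lce genes. Near-identical Sprr and Lce genes may share reads, so their single counts are uncertain.

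In unexposed knockouts 8 of the 84 genes were higher and 7 lower, with 6 of 16 Sprr genes among the first and 6 of 21 Lce genes among the second. Of all genes, 0.964% were called higher and 1.14% lower there. The Sprr count was 3 with limma voom and 2 without unexposed control library 2 or 3 or unexposed knockout library 1 or 2. The Lce count was 3 with upper quartile scaling and 1 without unexposed control library 3, and over all alternatives they ran from 2 to 8 and from 1 to 8. Beyond the members and these families, 2310046K23Rik was higher (log2 fold change 1.16, SE 0.20, edgeR adjusted p = 0.00276), as was Pglyrp3, which encodes a peptidoglycan recognition protein (0.78, SE 0.18, adjusted p = 0.024), and S100a7a was lower (-1.69, SE 0.41, adjusted p = 0.0449). After UVB 0 were higher and 12 lower in knockouts: Lor, Hrnr, 7 Lce genes, Crct1, Gm9774 and 2310050C09Rik. Of all genes, 2.36% were called higher and 2.32% lower in that comparison. The Lce count ranged from 3 without exposed knockout library 2, where 5 genes of the region were lower in all, to 12 with limma voom. DESeq2 called 3 genes higher and 21 lower, and limma voom 1 and 21. With UVB in controls the other genes with the smallest p were Pglyrp3 (2.37), Pglyrp4 (1.25), 2310046K23Rik (1.80) and S100a11 (1.18), given as log2 fold changes. These were not the largest rises, since Gm9774 (3.89), S100a9 (2.96) and S100a8 (2.72), named after their values were seen, were also called.

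**Figure D5:**
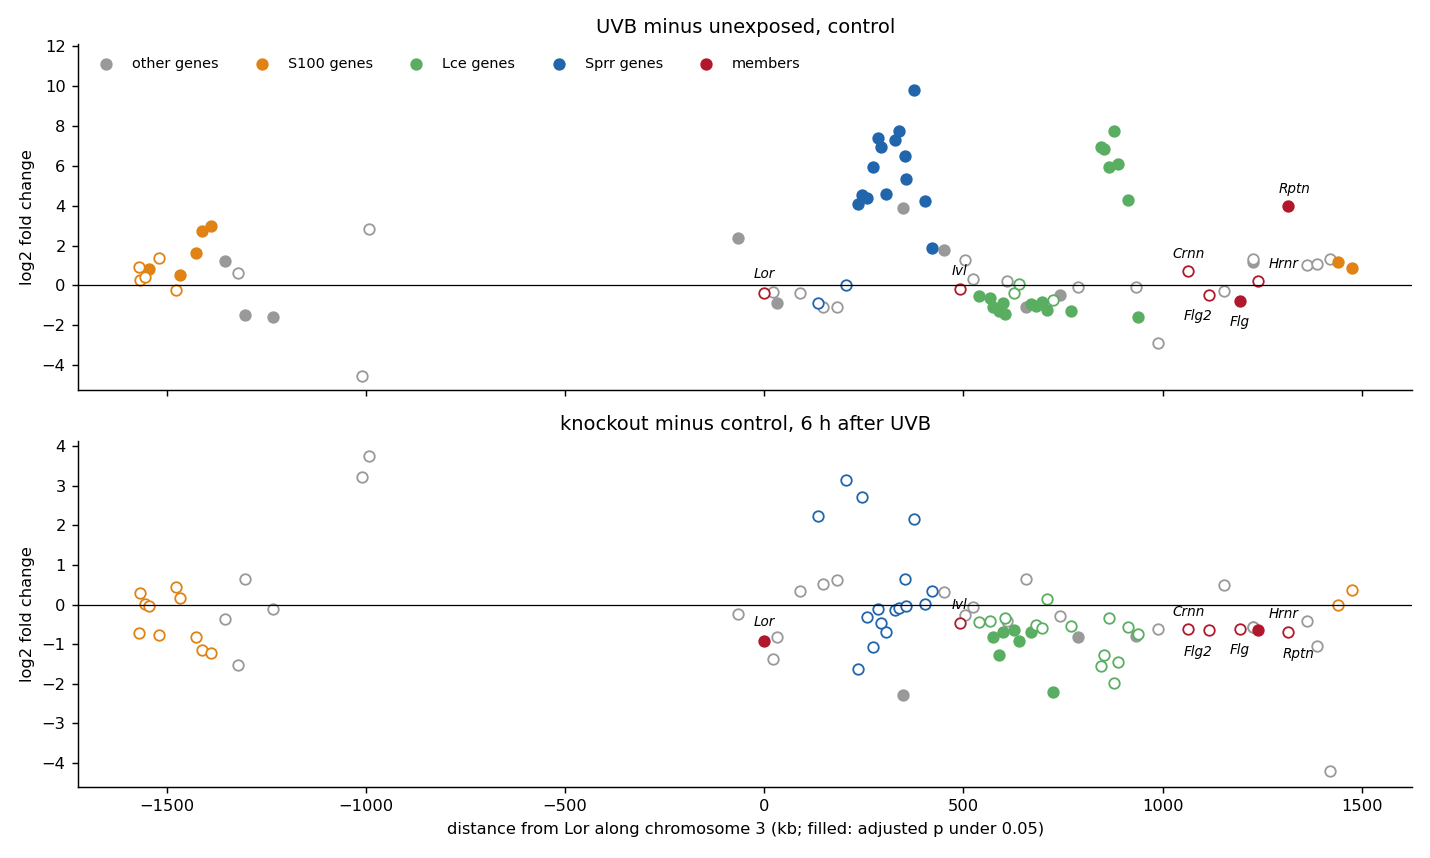
Each point is a tested gene of the epidermal differentiation complex, placed by its distance in kb from Lor and by its log2 fold change for UVB in controls (top) or knockout after UVB (bottom), filled where the adjusted p was under 0.05. Sprr genes and an Lce group stand high after UVB with Rptn, while Lor, Flg and Flg2 do not, and in exposed knockouts no gene of the region is filled above 0.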

How the data were processed

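RNA was sequenced from 16 epidermis libraries, 4 in each of 4 groups taken from the labels. The deposited table holds raw counts per Ensembl gene. The tools listed in the submitters' processing notes are STAR, HTSeq, FastQC and DESeq2. Their versions, the genome build and the use of strand in counting: not given in the sources used here. Gene names, positions and exonic lengths come from GENCODE M21 (GRCm38), and promoters from RefSeq (GRCm38.p6). A library held 32983160 to 53255160 counts. Of counts from 2 to 101, 68.8% were even, for no reason given, and counting error alone is no measure of precision here.

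The main test was edgeR's robust quasi-likelihood F test (edgeR 4.0.16, R 4.3.3) after filterByExpr and TMM scaling, with 1 mean per group over all 16 libraries. Its p-values, all two-sided, received the Benjamini-Hochberg adjustment over 17741 genes, and a gene was called at an adjusted p under 0.05. The SE is the log2 fold change over the square root of F, and a 95% interval is 1.96 SE either way. This interval is approximate and can be narrower than the F test implies. For Tgm1 in unexposed knockouts against controls it ran from -0.63 to -0.01, while the F test gave an unadjusted p of 0.0588. Correlations used log2 of CPM plus 0.5. The fit was also run on simulated counts, which lack the excess of even counts seen here. That run therefore does not show how well the fit suits these libraries. Alternatives were DESeq2 1.42.0, limma 3.58.1 voom, RLE and upper quartile scaling, no filter (at least 1 count in all), at least 1 CPM in 4 libraries, only the groups compared, and leaving out each library. Python 3.11.15 with numpy 2.4.6, pandas 2.3.3 and matplotlib 3.10.9 made the tables and plots.

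All 10 members are named. Others named are up to 4 called genes with the smallest p per list and comparison, the 3 genes most like each member, and up to 4 other called genes of the differentiation complex. Genes named with follicle markers were chosen after their values were seen. The members and the lists (other envelope proteins, profilaggrin processing, other transglutaminases, differentiation regulators, epidermal keratins, and markers of hair follicle, fibroblasts, Langerhans cells, T cells, melanocytes, endothelium, neutrophils and macrophages, skeletal muscle, sebaceous gland and adipocytes) were chosen with earlier results of these data known. A list is described by its counts and median, with no set test. Protein sequences were not used here. A result for 1 differentiation regulator is not reported here.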

Additional observations from a re-analysis of the deposited data

Results flagged for a closer look

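Of 40 sets of 4 libraries (10 members in 4 groups), 4 held a library far from the other 3, with a gap to its neighbour, as a share of the group's range, above Dixon's 95% critical value. Chance flags about 1 in 20 such sets. Rptn read 3650 CPM in exposed control library 2, with a gap of 0.947 of the range. Hrnr read 1530 CPM in unexposed knockout library 2, the lowest of its group (0.871). In exposed knockout library 1, Ivl read 304 CPM (0.859) and Flg2 1720 CPM (0.857), and both were the highest of their group.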

How the results depend on the processing

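No paired analysis was possible because the labels number the libraries through the series and pair none across groups. Of the members' values under other settings, 306 kept their direction and side of the threshold, 24 gained a call, 2 lost one and 8 changed sign. In fits without 1 library the same counts were 424, 12, 15 and 29. For the unexposed knockout, 373 genes were called, 742 with DESeq2 and 134 to 435 without 1 library. Its 1 called member became 3 without a filter, 3 with DESeq2, 2 with limma voom and 0 to 2 without 1 library. For the knockout after UVB, 830 genes were called, 1493 with DESeq2 and 419 to 1356 without 1 library. Its 2 called members became 4 with at least 1 CPM in 4 libraries, with DESeq2 and with limma voom, 1 with only the groups compared, and 1 to 3 without 1 library. The difference of UVB responses called 0 genes, 2 without a filter, 31 with DESeq2 and 0 to 2 without 1 library, and 0 members, 1 with DESeq2. The cause of these shifts was not tested. Values near 0 changed sign. Hrnr for UVB in knockouts (0.02) was -0.03 with RLE scaling, without a filter, with DESeq2 and with only the groups compared, -0.06 with upper quartile scaling, and -0.11 to 0.10 without 1 library. The Flg2 difference of responses (0.04) was -0.03 with RLE scaling and DESeq2, -0.02 with upper quartile scaling, and -0.12 to 0.18 without 1 library. Without 1 library, values ran from -0.43 to 0.02 for Flg and -0.02 to 0.32 for Tgm3 (knockout, unexposed), -0.32 to 0.32 for Tgm3 (knockout, UVB), and -0.60 to 0.25 for Ivl (UVB, knockout). The difference of responses ran from -0.42 to 0.43 for Ivl and -0.41 to 0.23 for Tgm3. With limma voom the median of all genes was -0.13 for UVB in controls and 0.11 for the knockout after UVB.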
